A study of Mus musculus with 13 samples.

Results

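The 38 genes described here encode the proteins that write, read or erase methylation of histone H3 at lysine 27 (H3K27) and lysine 4 (H3K4). They were found by gene symbol in 6 ChIP-seq peak lists of 4T1 cells, a metastatic mouse mammary tumor line, and are 38 of the 18562 genes that occur in at least 1 list. The lists name 35 of them by the symbols used here, and 3 by older symbols (Mll1 for Kmt2a, Mll3 for Kmt2c and Mll2 for Kmt2d). H3K27me3 and H3K4me3 were profiled in sg-Ctrl cells, which carry a non-targeting guide RNA, and in Nup210 KO cells, in which a guide RNA against exon 5 had disrupted Nup210. In sg-Ctrl alone, ChIP was also done for NUP210 and, with an antibody to several pore proteins, for the nuclear pore complex (NPC). The KO cells are 1 clone, N13, grown from a single edited cell, and Cas9 was delivered with an adenovirus, so that an effect of the clone and an effect of losing NUP210 cannot be told apart. With 1 library per condition the differences have no replicate check, and none was tested. The 95% intervals of reads and ratios cover counting error only. Those of shares and medians treat the genes of a set as independent draws, which chosen genes are not. All of them leave out any variation among cultures. No list measures Nup210 RNA or protein, so the knockout itself was not checked here. The epithelial genes Krt8, Krt18, Epcam and Cdh1 each had an H3K4me3 peak at the transcription start site (TSS) in both libraries, while the leukocyte genes Ptprc, Cd3e and Csf1r had none in either.

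Polycomb repressive complex 2 (PRC2) places H3K27me3 through EZH1 or EZH2, which need EED and SUZ12, and its accessory subunits help to bring it to CpG-rich chromatin. The CBX proteins of canonical PRC1 bind H3K27me3, and RING1 or RNF2 with BMI1 ubiquitinate histone H2A. KDM6A and KDM6B remove H3K27 methylation. The COMPASS family, built on SETD1A, SETD1B and the KMT2 proteins with the shared subunits WDR5, RBBP5, ASH2L and DPY30, methylates H3K4, which the KDM5 proteins and KDM1A reverse. H3K4me3 marks the promoters of active genes, and H3K27me3 covers silent developmental genes. A gene for such an enzyme can itself carry either mark.

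Promoter sequences are shown for Bmi1 and Phc2, since they were the members with an H3K27me3 peak, and for Suz12, which had the lowest H3K4me3 ratio of KO to sg-Ctrl among the 33 members with a promoter in the RefSeq table (build GRCm38.p6). Each runs 5′ to 3′ from 250 bases before a start site to 50 bases after it, on the plus strand, and capitals mark CpG dinucleotides. Phc2 has 3 start sites in the table, so that its promoters can be compared with each other.
Bmi1, chr2:18676768-18677067: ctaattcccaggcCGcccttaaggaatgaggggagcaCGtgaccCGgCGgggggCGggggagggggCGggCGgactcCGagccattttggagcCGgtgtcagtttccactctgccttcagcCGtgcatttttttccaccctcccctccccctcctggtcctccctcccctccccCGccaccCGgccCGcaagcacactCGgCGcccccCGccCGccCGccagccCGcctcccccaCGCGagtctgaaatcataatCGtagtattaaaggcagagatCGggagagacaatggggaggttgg
Phc2, first start, chr4:128654452-128654751: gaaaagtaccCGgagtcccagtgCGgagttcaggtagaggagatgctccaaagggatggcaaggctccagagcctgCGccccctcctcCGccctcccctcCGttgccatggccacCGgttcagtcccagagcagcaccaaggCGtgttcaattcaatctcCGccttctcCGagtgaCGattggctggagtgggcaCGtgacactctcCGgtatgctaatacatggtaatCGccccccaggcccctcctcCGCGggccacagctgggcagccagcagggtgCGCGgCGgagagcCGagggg
Phc2, second start, chr4:128688488-128688787: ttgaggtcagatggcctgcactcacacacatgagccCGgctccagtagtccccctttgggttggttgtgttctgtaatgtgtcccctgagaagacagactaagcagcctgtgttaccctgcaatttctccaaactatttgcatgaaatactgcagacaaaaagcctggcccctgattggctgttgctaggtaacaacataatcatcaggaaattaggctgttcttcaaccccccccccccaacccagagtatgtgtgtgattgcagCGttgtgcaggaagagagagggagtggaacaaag
Phc2, last start, chr4:128727321-128727620: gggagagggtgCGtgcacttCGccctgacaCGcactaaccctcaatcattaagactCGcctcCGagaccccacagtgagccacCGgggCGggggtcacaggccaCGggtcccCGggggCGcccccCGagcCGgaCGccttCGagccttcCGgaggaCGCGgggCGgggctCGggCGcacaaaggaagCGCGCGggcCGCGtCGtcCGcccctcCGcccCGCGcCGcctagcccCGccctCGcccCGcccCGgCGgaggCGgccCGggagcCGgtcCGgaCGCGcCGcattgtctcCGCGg
Suz12, chr11:79992856-79993155: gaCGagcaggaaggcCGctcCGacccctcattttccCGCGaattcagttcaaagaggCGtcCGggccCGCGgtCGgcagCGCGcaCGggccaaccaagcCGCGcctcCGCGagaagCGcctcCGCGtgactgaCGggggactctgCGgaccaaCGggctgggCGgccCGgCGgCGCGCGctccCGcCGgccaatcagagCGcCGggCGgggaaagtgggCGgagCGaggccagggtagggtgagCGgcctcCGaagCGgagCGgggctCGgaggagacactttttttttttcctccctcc

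The Bmi1 window held 23 CpGs and the Suz12 window 41. At Phc2 the first start had 19 CpGs, the second 2 and the last 45, and of the Phc2 windows only that of the last start lay in an H3K4me3 peak. Over the 47 promoter windows of the 33 members the median was 24 CpGs. It was 21 over the 11314 windows of genes with an H3K4me3 peak in both libraries, and 7 over all 32851 windows of the table. Short motifs were searched on both strands. The E2F letters TTTCCCGC or TTTGGCGC occurred at Ezh2, Suz12 and Phf19, in 6.38% of member windows against 1.56% of all windows and 3.01% of those of H3K4me3 genes. The SP/KLF letters GGGGCGGGG occurred in 31.9%, 11.4% and 22.0% of the same windows, respectively, and were present at 14 members. YY1 letters (AAGATGGCG) were found at Phf19, Phc3 and Kdm5c, in 6.38%, 1.40% and 3.08% of those windows. NRF1 letters (GCGCATGCG) were found at Phc3, in 2.13%, 1.75% and 3.86%, and CRE letters (TGACGTCA) at Cbx8, in 2.13%, 1.79% and 3.27%. No member window held the ETS letters CCGGAAGT, which 3.89% of all windows and 8.41% of those of H3K4me3 genes did. A match of letters is not evidence of a bound site.

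All 38 members had an H3K4me3 peak within 4 kb of a TSS in both libraries, and the peaks of the libraries overlapped at each member. Of the 12693 genes with such a peak in either list, 96.1% had it in both. H3K4me3 is given here as scaled reads per kb, the ChIP reads of the TSS peak divided by its width and by the size of the ChIP library relative to IgG. The peaks used held 354 to 7785 reads. In sg-Ctrl the members had a median of 472 such reads per kb and in KO of 327, below the 543 and 382 of all 12197 genes with a peak in both libraries.

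**Figure D1:**
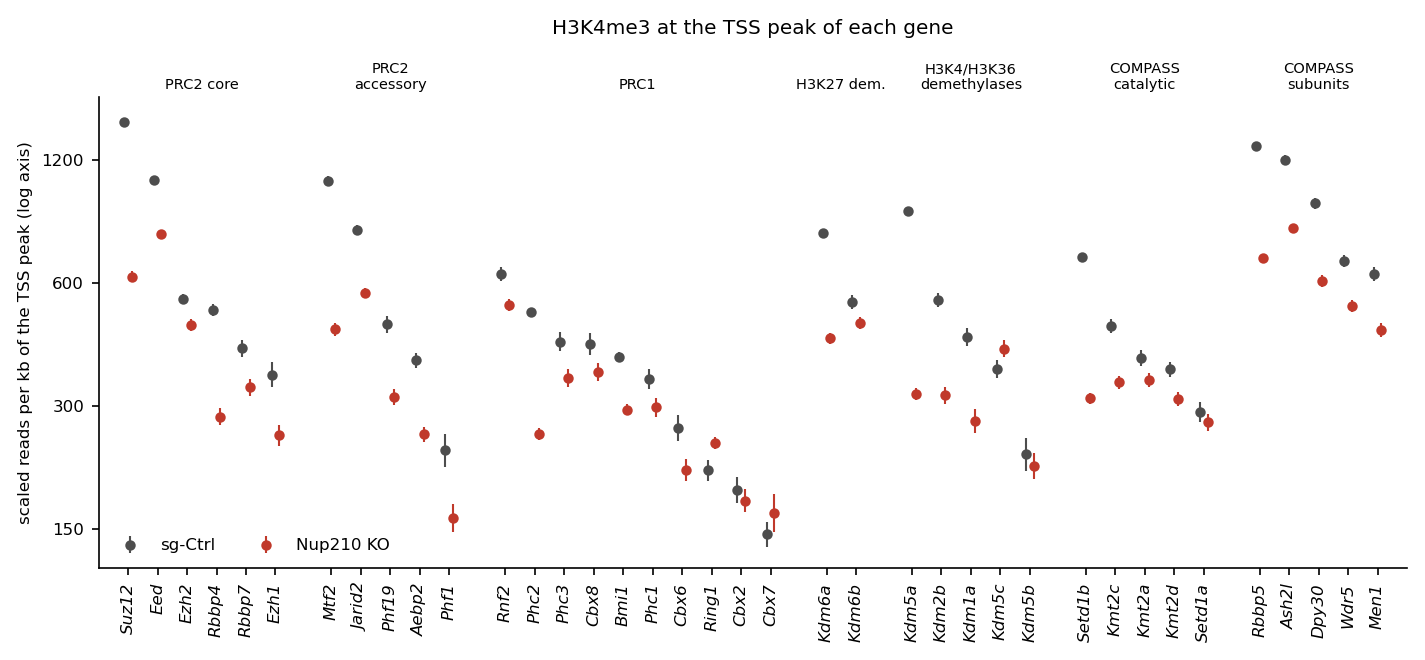
Scaled H3K4me3 reads per kb of the TSS peak (log axis) for each of the 38 genes, by role, in the sg-Ctrl library (grey) and the Nup210 KO library (red); bars are 95% intervals of the read count. Suz12, Rbbp5, Ash2l, Eed and Mtf2 are the highest in sg-Ctrl, and the KO point is below the sg-Ctrl point at 35 of 38 genes, with Ring1, Cbx7 and Kdm5c above it.

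Among the PRC2 core genes, Suz12 was the highest in sg-Ctrl. Suz12, which stabilises the catalytic subunit, reached 1479.9 scaled reads per kb (95% interval 1447 to 1514) in the control library, at percentile 99.1 of all genes, and 621 (603 to 639.9) in the KO library. Eed, whose product reads H3K27me3, had 1069.6 and 787. The alternative catalytic subunits differed in level, with Ezh2 at 548 and 473 and Ezh1 at 358 and 254 in sg-Ctrl and KO, respectively. The histone chaperone genes Rbbp4 and Rbbp7, which also serve other complexes, had 514 and 282, and 414 and 333. The Rbbp4 peak also spans the TSS of Zbtb8os, so its reads belong to both genes. Every PRC2 core gene had fewer scaled reads per kb in KO than in sg-Ctrl, as did 88.7% of all genes. Their log2 ratios ran from -1.25 (Suz12) to -0.21 (Ezh2), and 4 of the 6 were above the median of all genes.

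Of the PRC2 accessory genes, Mtf2 and Jarid2 were the highest. Mtf2, a Polycomb-like protein that binds CpG-rich DNA, reached 1065 scaled reads per kb (1035 to 1095) in the control library and 462 (445 to 479) in the KO library. Jarid2 had 808 and 566. Phf19 and Phf1, also Polycomb-like genes, had 475 and 316, and 234 and 159, and Aebp2 had 388 and 256. Relative to the median log2 ratio of all genes, Mtf2 (-0.70) and Aebp2 (-0.10) were lower, and Phf19 (-0.09), Phf1 (-0.05) and Jarid2 (-0.01) had intervals that include 0. By the summed reads of joined regions, described below, Phf1 (0.52) and Phf19 (0.27) were above the median of all genes.

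The 10 PRC1 genes had lower H3K4me3 than the PRC2 core, with a median of 372 against 531 scaled reads per kb in sg-Ctrl. Rnf2, the main E3 ligase, had 629.6 in sg-Ctrl and 530.3 in KO, and its paralog Ring1 had 209 and 243. Bmi1, the partner of the ligase, had 394 and 294. The chromodomain genes were low. Cbx7 had 145 and 164, Cbx2 had 187 and 176, Cbx6 had 264 and 209, and Cbx8 had 425 and 363. In sg-Ctrl, Cbx7, Cbx2 and Ring1 were at percentiles 5.74, 8.23 and 9.81 of all genes. The polyhomeotic genes, whose products polymerise through a SAM domain, had 349 and 297 (Phc1), 507 and 256 (Phc2) and 431 and 351 (Phc3). Relative to the median of all genes, 9 of the 10 PRC1 genes had a higher ratio, as did 6098 of all 12197 genes. Across all genes, those with less dense H3K4me3 in sg-Ctrl had higher ratios, as described below. Phc2 had a lower one (-0.49). By the summed reads of joined regions, Cbx7 (-0.72) was also below the median of all genes, and Bmi1 was near it (0.009).

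The H3K27 demethylase genes Kdm6a and Kdm6b stood at 792 and 539 scaled reads per kb in the control library and at 439 and 477 in KO cells. The TSS of Kdm6b lay in the gap between 2 peaks in both libraries, and the denser, downstream peak was used. By that peak Kdm6a was above Kdm6b in sg-Ctrl and below it in KO. The upstream Kdm6b peak had 371 and 276, below Kdm6a in both libraries. Of the H3K4 and H3K36 demethylase genes, Kdm5a stood at 897 (872 to 922) in the control library and 320.3 (310.0 to 331) in KO cells, the lowest per-kb ratio of any member. The other KDM5 genes had ratios near 1. Kdm5c had 369 and 414, and Kdm5b had 228 and 214, within the counting error. The Kdm5b values are those of the denser of 2 peaks, which lay upstream of the TSS, and the peak over the TSS had 189 and 158. Kdm1a, which encodes LSD1, had 442 and 275. Kdm2b, an H3K36 demethylase that recruits a PRC1 variant to CpG islands, has separate start sites far apart in the gene, and both were marked in both libraries. The upstream start had 544 and 318 scaled reads per kb, and the downstream start 387 and 205.

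Of the COMPASS genes, the non-catalytic subunits (the shared ones and Men1) were marked more strongly than the catalytic ones, with medians of 938 and 393 scaled reads per kb in sg-Ctrl. Rbbp5 had 1295 in sg-Ctrl and 688 in KO, Ash2l 1195 and 816, and Dpy30 938 and 606. Wdr5 had 679 and 526, and Men1, which encodes menin, had 629 and 461. Among the catalytic subunits, Setd1b stood above the rest with 692 (677 to 708) in the control library, and was within their range with 313 (303 to 323) in KO cells. Its paralog Setd1a had 290.0 and 274, the smallest difference of the COMPASS genes and within the counting error. Kmt2a, Kmt2c and Kmt2d had 393 and 348, 469.7 and 342, and 369 and 312.

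The log2 ratio of KO to sg-Ctrl was below 0 at 35 of 38 members (92.1%, Wilson interval 79.2 to 97.3), where 88.7% of all genes were. Its median was -0.45 over the members (interval -0.59 to -0.25) and -0.50 over all genes. When the libraries were scaled by the reads of the peaks they share, the median of all genes became -0.08, and 21 members were lower and 17 higher. Ratios relative to the median of all genes do not depend on this scaling. They had a median of 0.05 over the members (-0.09 to 0.25), with 22 members above the median of all genes and 16 below it.

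By a limit of 2-fold, 4 of 38 members (10.5%) were lower in KO, and 9.66% of all genes were. These were Kdm5a, with a log2 ratio of -1.49 (-1.55 to -1.42), Suz12 with -1.25 (-1.31 to -1.20), Mtf2 with -1.20 (-1.27 to -1.14) and Setd1b with -1.15 (-1.20 to -1.09). Phc2 was just outside the limit at -0.99 (-1.05 to -0.92), and Rbbp5 (-0.91), Rbbp4 (-0.87) and Kdm6a (-0.85) followed. No member was 2-fold higher, as were 0.525% of all genes. Ring1 (0.22, 0.12 to 0.32), Cbx7 (0.18, -0.01 to 0.36) and Kdm5c (0.17, 0.07 to 0.27) had the highest ratios. Relative to the median of all genes, no member was 2-fold lower or higher, against 0.926% and 2.2% of all genes. Kdm5a came closest with -0.99, followed by Suz12 with -0.75, while Ring1 had 0.72, Cbx7 0.68 and Kdm5c 0.67. When the libraries were scaled by shared peaks, Kdm5a alone stayed below the 2-fold limit (-1.06).

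Across all genes, those with dense H3K4me3 in sg-Ctrl had lower ratios, a relation in which both measures share the sg-Ctrl reads. In the densest 10% of genes, where Suz12 and Mtf2 lie with Eed, Ash2l and Rbbp5, the median log2 ratio was -0.85 and 30% were 2-fold lower. The decile of Kdm5a had a median of -0.70 with 13.2% lower, and that of Setd1b had -0.57 with 9.34%. In the least dense 10%, which holds Cbx7, Cbx2 and Ring1, the median was -0.00 (-0.003). Suz12, Mtf2, Kdm5a and Setd1b were each below the median of their own decile. This holds for any gene past the 2-fold limit, since no decile had a median below -0.85. Of the other members in the densest 10%, Rbbp5 (-0.91) was below the median of that decile, and Eed (-0.44) and Ash2l (-0.55) were above it. The PRC1 genes, 9 of 10 above the median ratio of all genes, had a median density percentile of 26.4 in sg-Ctrl. Against their own deciles, Cbx2, Cbx6, Bmi1 and Phc2 were below the median and the other PRC1 genes above it. The part of density in these ratios was not tested.

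**Figure D2:**
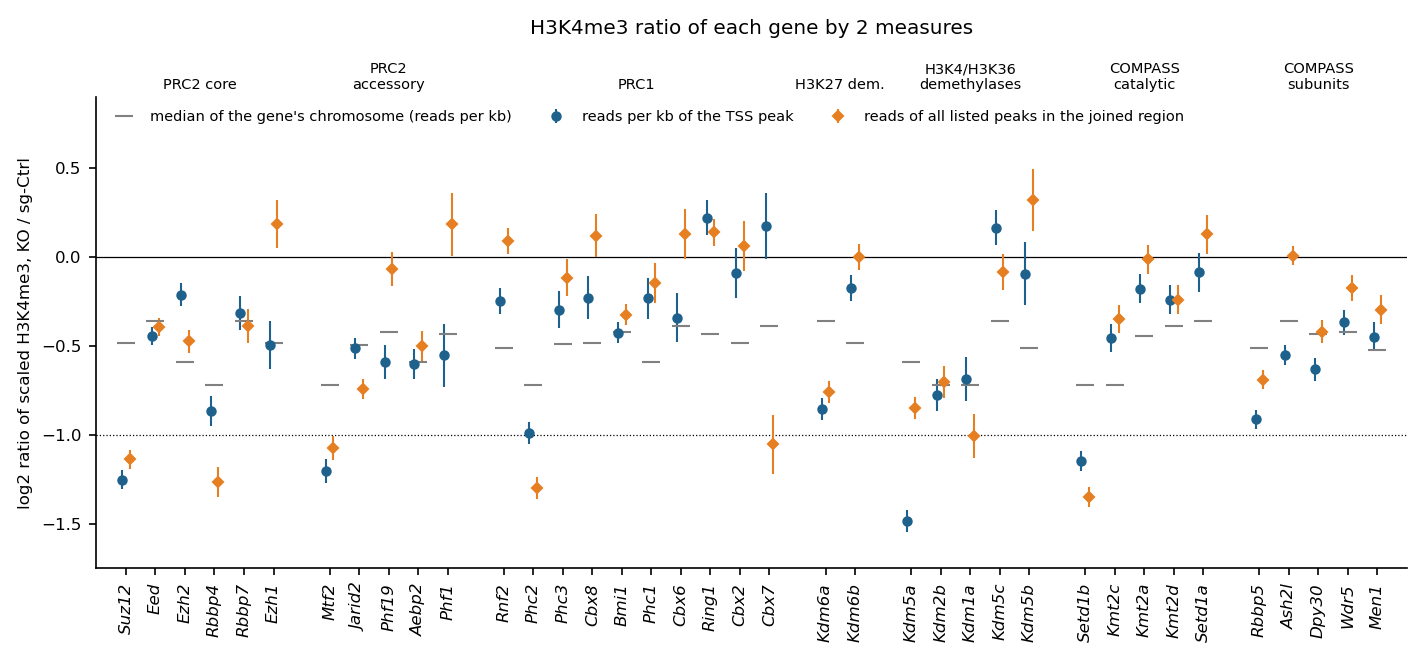
Log2 ratio of scaled H3K4me3, Nup210 KO over sg-Ctrl, for each gene by reads per kb of the TSS peak (blue) and by the summed reads of the listed peaks in the joined region (orange), with 95% counting intervals. Grey bars are the median of all genes of the same chromosome by reads per kb, the measure of the blue points. The dotted line is the 2-fold limit. Suz12, Mtf2 and Setd1b lie below the limit by both measures, Kdm5a by the first alone, and Rbbp4, Cbx7, Phc2 and Kdm1a by the second alone.

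Reads per kb depend on where the peak caller ends a peak. The TSS peak was wider in KO than in sg-Ctrl at 28 of 38 members (73.7%), and at 63.1% of all genes, with member medians of 4200 bp in sg-Ctrl and 4700 bp in KO and medians of 3600 and 4200 bp over all genes. At Kdm5a the peak was 5.4 kb with 5137 reads in sg-Ctrl and 8.4 kb with 3626 reads in KO, and in both libraries it also spanned the TSS of the divergent gene Ccdc77. At Ring1 it was 5 kb with 1107 reads and 10.6 kb with 3473 reads, respectively. Both Ring1 peaks spanned the TSSs of H2-Ke6 and Mir219-1. The KO peak also took in the TSSs of Rxrb and Slc39a7, which had a separate peak in sg-Ctrl. In each library the peaks of 7 members covered the TSS of another gene. Besides Rbbp4, Bmi1, Kdm5a and Ring1, these were Cbx6 (Npcd), Kdm2b (A930024E05Rik) and Kmt2c (4831440E17Rik). At Cbx7 a single peak of 5.2 kb with 802 reads in sg-Ctrl was replaced in KO by peaks of 1.6 kb with 354 reads and 2 kb with 137 reads.

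Therefore the peaks of both libraries were also joined where they overlapped, and the reads of the listed peaks in each joined region were summed. Stretches where a library had no listed peak count as 0 reads in this sum, so it is biased against the library with the narrower peaks, as reads per kb can be against the wider. This measure was added once the first values were known. By this measure 7 of 38 members were at least 2-fold lower in KO, and 7.22% of all genes. The members were Setd1b (-1.35), Phc2 (-1.30), Rbbp4 (-1.26), Suz12 (-1.14), Mtf2 (-1.07), Cbx7 (-1.05) and Kdm1a (-1.01, with an interval of -1.13 to -0.88 that includes the limit). The KO peaks covered 9.2 kb of the 10.6-kb region at Setd1b, 9.2 of 11.6 kb at Phc2, 4.4 of 5.8 kb at Rbbp4 and 2.4 of 3 kb at Kdm1a. At Cbx7 the KO peaks covered 1.6 and 2 kb of the 5.2-kb region, and the rest counts as 0 reads. At Suz12 and Mtf2 they covered the whole region. Kdm5a had -0.85. Cbx7, which had one of the highest ratios per kb, was thus among the lowest in summed reads, while Ring1 stayed above 0 with 0.14 (0.06 to 0.21). By joined regions 27 members were lower and 11 higher, with Kdm5b (0.32, 0.15 to 0.50), Ezh1 and Phf1 (0.18 each) the highest, and the median was -0.31, next to -0.33 for all genes. Ezh1, Phf1, Rnf2, Cbx2, Cbx6, Cbx8, Kdm6b, Kdm5b, Setd1a and Ash2l were below 0 per kb and above 0 in summed reads, and Kdm5c and Cbx7 the reverse, so no direction holds for these members by both measures.

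The members lower in summed reads were not spread evenly over chromosomes. Of the 7 members on chromosomes 4 and 5, Rbbp4, Phc2, Kdm1a, Mtf2 and Setd1b were at least 2-fold lower and Kdm2b (-0.70) and Kmt2c (-0.35) were not, whereas on other chromosomes Suz12 and Cbx7 were, 2 of 31. The same chromosomes were low over all genes. On chromosomes 4 and 5, 21.9% of genes were 2-fold lower by joined regions, against 5.11% elsewhere. By reads per kb, 2 of the 7 members there (28.6%), Mtf2 and Setd1b, were 2-fold lower, and 21.7% of genes. The KO peak was narrower than the sg-Ctrl peak at 4 of these 7 members and wider at 3. The median of joined regions was -0.81 on chromosome 4, -0.62 on chromosome 5 and -0.28 over all genes of the other chromosomes. Low medians were not particular to these chromosomes, since chromosomes 18 (-0.83) and 14 (-0.65), which hold no member, also had them. Chromosomes 4 and 5 were set apart with earlier results of these data known. Relative to the median of its own chromosome, Cbx7 (-0.86) and Suz12 (-0.83) were the lowest in summed reads, Setd1b had -0.73, Phc2 -0.49, Mtf2 and Rbbp4 -0.45 each and Kdm1a -0.20. By reads per kb Kdm5a (-0.90) and Suz12 (-0.77) were the lowest against their chromosomes, and the median of the 38 members was 0.04. Copy number of chromosomes 4 and 5 in either cell population was not measured in these lists, and its part in the ratios was not tested.

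**Figure D3:**
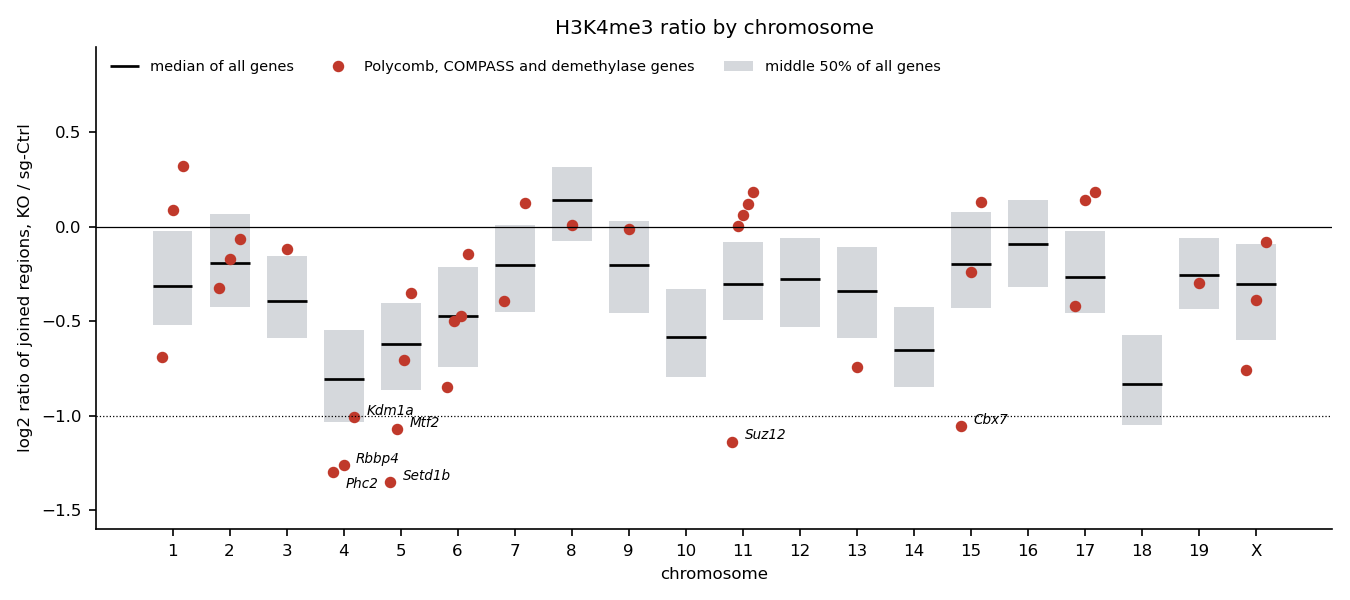
Log2 ratio of H3K4me3 reads of joined regions, KO over sg-Ctrl, by chromosome: grey boxes hold the middle 50% of all genes, black lines their median and red points the 38 genes (names are given at or below the 2-fold limit, the dotted line). Of the 7 named genes, 5 are on chromosomes 4 and 5, where the median of all genes is also low.

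Very wide H3K4me3 peaks were found at 3 members. In sg-Ctrl the peak was 11.4 kb at Phc2, 11 kb at Bmi1 and 10.6 kb at Setd1b, each within the widest 2% of all genes. In KO these were 9.2, 11.8 and 9.2 kb. The Bmi1 peak also covered the TSS of Commd3. In all, 13 of 38 members (34.2%) had a peak over 5 kb in sg-Ctrl, as did 23% of all genes. The non-catalytic COMPASS subunit genes, though dense, had peaks of 3.6 to 4.8 kb. Phf1 and Kdm5b had the narrowest peaks, of 1.8 kb each.

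In sg-Ctrl an H3K27me3 peak lay on the gene body of 2 of 38 members (5.26%, 1.46 to 17.3), Phc2 and Bmi1. In KO it lay on 1 (2.63%, 0.466 to 13.5), Phc2. Of the 12693 genes with an H3K4me3 peak in either library, 6.33% had an H3K27me3 peak in sg-Ctrl and 5.19% in KO. The intervals of the members, wide with 38 genes, include both shares, which is not a test that they are equal. None of the peaks on members covered a TSS. The 2 peaks in sg-Ctrl covered 21 kb of member gene bodies in all, and the peak in KO 16 kb.

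At Phc2 the marks lay apart in the gene, and H3K27me3 covered no start site. H3K4me3 lay over the last start, at chr4:128726601-128738000 in sg-Ctrl, and the listed H3K4me3 peak nearest to the first or the second start was 37.7 kb away or farther. H3K27me3 began 5.3 kb after the first start, in the transcribed region of the longest isoform, and covered chr4:128660001-128680000 in sg-Ctrl with 711 reads (659.7 to 765.2) against 187 of IgG, a fold over IgG of 4.49. In KO it covered chr4:128664001-128680000 with 1129 reads (1064 to 1197) and a fold of 2.48. Per kb of the listed peak, the scaled level was 42.0 reads for sg-Ctrl and 26.4 for KO, with a log2 ratio of -0.67 (-0.81 to -0.53). By the same measure the median was -0.14 over 6247 regions with a peak in both libraries and -0.38 over those of chromosome 4. As sums over the joined 20 kb, of which 4 kb had no listed KO peak and count as 0 reads, the log2 ratio was -0.99, with medians of 0.02 and -0.62, respectively.

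At Bmi1, H3K27me3 was listed in sg-Ctrl as a single window of 1 kb, at chr2:18678001-18679000, from 983 bp after the TSS. It had 86 reads (68.8 to 106.2) against 3 of IgG, a fold of 33.9, and was inside the 11-kb H3K4me3 peak. Of 33 sg-Ctrl peaks of this width, 8 had at least this fold, and this was the only one of those 8 inside an H3K4me3 peak. At the depth of the KO library the sg-Ctrl level would give 272 reads, and the KO peaks of this width had a median of 132.5 reads and a minimum of 109. The 272 is scaled from the 86 reads of 1 library, and the KO counts are those of called peaks alone. The nearest KO peak was 22 kb away, so the KO list holds no read count for this window. Whether H3K27me3 was lost there or was present and not called was not tested.

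**Figure D4:**
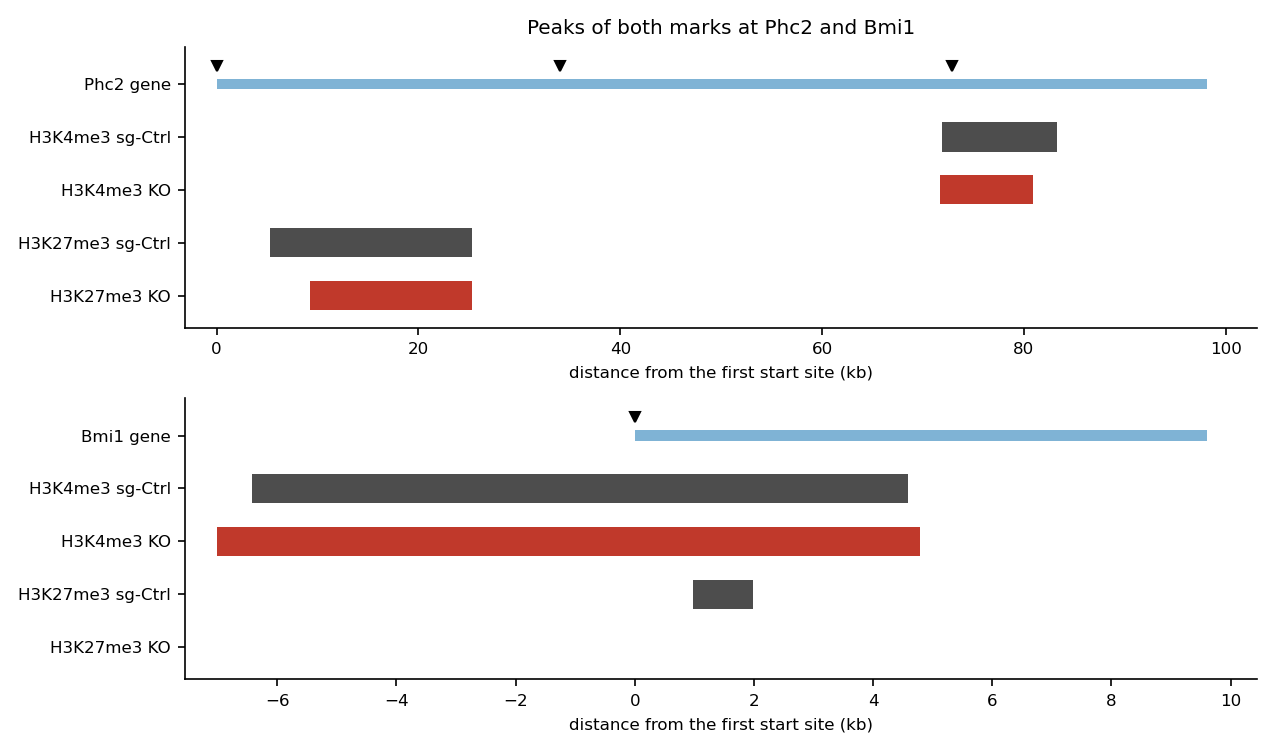
Listed peaks at Phc2 (top) and Bmi1 (bottom) by distance from the first start site in kb; triangles are RefSeq start sites, blue bars the gene, grey bars peaks in sg-Ctrl and red bars peaks in Nup210 KO. At Phc2 H3K27me3 follows the first start while H3K4me3 covers the last, and at Bmi1 the 1-kb H3K27me3 peak of sg-Ctrl is inside the H3K4me3 peak.

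NUP210 peaks in sg-Ctrl fell on the gene bodies of 14 of 38 members (36.8%, 23.4 to 52.7), and 26.1% of the 12693 genes had one. NPC peaks also fell on 14 members, and on 24.7% of those genes, and 13 members had both (Ezh2, Suz12, Mtf2, Bmi1, Rnf2, Phc3, Kdm6a, Kdm5a, Kdm5b, Kdm1a, Kmt2c, Rbbp5 and Dpy30). Aebp2 had NUP210 alone and Kdm2b NPC alone. The signal was weak. Folds over IgG were 0.97 to 1.62 for the 23 NUP210 peaks and 0.78 to 1.52 for the 24 NPC peaks, and no peak reached 2. With an FDR of at most 0.05, 9 members kept a NUP210 peak (23.7%, against 20.3% of genes) and 7 kept an NPC peak (18.4%, against 16.1%).

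By role, NUP210 peaks with that FDR were found on Ezh2, Mtf2, Aebp2, Phc3, Kdm6a, Kdm5a, Kdm5b, Kdm1a and Kmt2c. Ezh2 carried 3 peaks that covered 69.5% of its 64.8 kb, with folds of 1.18, 1.43 and 1.52, the last over its TSS. Kmt2c, the longest member at 227 kb, carried 5 peaks over 72.7% of its length, with folds of 1.15 to 1.58. Kdm6a had 2 peaks over 59.4% of the gene, with folds of 1.16 and 1.19. At Kdm5a, 1 of 2 peaks passed the FDR (fold 1.42). The highest fold was that of a 5-kb peak in Aebp2 (1.62). Suz12, by contrast, had a listed NUP210 peak with 755 reads against 770 of IgG, a fold of 0.97. For NPC, Phc3 (1.40), Kdm5b (1.31 and 1.25), Kdm1a (1.51), Kmt2c (1.24), Dpy30 (1.52), Suz12 (1.10) and Mtf2 (1.08) passed the same FDR. Members with a NUP210 peak were longer, with a median of 52.7 kb against 22.6 kb for those without. The same held for all genes with an H3K4me3 peak, 49.3 kb against 14.01 kb, and the part of gene length was not tested. Of the 10 COMPASS genes, Kmt2c, Rbbp5 and Dpy30 had listed peaks of both kinds. Setd1a, Setd1b, Kmt2a, Kmt2d, Ash2l, Wdr5 and Men1 had neither. Of all 12693 genes, 26.1% had a NUP210 peak and 24.7% an NPC peak, so most genes had none of a given kind. No list measures NUP210 or NPC in KO.

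**Figure D5:**
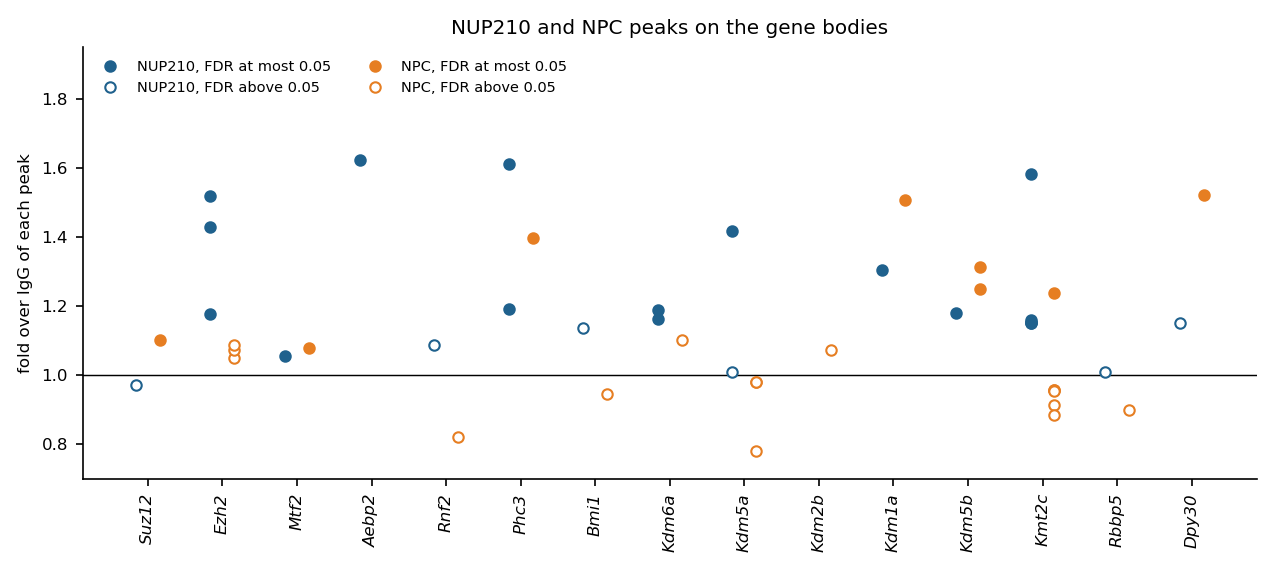
Fold over IgG, as the authors deposited it, of each NUP210 (blue) and NPC (orange) peak on a gene body in sg-Ctrl; filled points have an FDR of at most 0.05. NUP210 folds lie between 0.97 and 1.62 and NPC folds between 0.78 and 1.52, with filled points for 9 and 7 genes, respectively.

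Of 63 other genes of these pathways, 55 had an H3K4me3 TSS peak in both libraries and the remaining 8 had one in neither. The median log2 ratio of the 55 was -0.36, and 2 (3.64%, against 9.66% of all genes) were at least 2-fold lower, Kmt2e (-1.36, on chromosome 5) and Scml4 (-1.21). Cxxc1, a SETD1 subunit gene on chromosome 18, had -0.99. None was 2-fold higher, and relative to the median of all genes Bcor, a subunit of variant PRC1, had the highest value (1.16, from 180 reads in sg-Ctrl and 412 in KO), followed by E2f6 (0.55). H3K27me3 peaks lay on 7 of the 63 genes in each library, the same 7: Asxl3, Kdm4d, Mga, Scml2, Scml4, Sfmbt2 and Smyd1. Of these, Asxl3, Scml2 and Smyd1 had no listed H3K4me3 TSS peak, while Mga and Sfmbt2 had H3K27me3 over a start site as well as an H3K4me3 TSS peak. NUP210 peaks fell on 32 of the 63 and NPC peaks on 28. Among the 55 with an H3K4me3 peak, 4 (7.27%) had H3K27me3 in each library, 27 (49.1%) had a NUP210 peak and 23 (41.8%) an NPC peak, against 6.33% and 5.19%, 26.1%, and 24.7% of all such genes. The part of gene length in these shares was not tested.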

How the data were processed

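The 6 peak lists used hold ChIP-seq of 4T1 cells, 1 library each, for both histone marks in either condition and for NUP210 and NPC in the control. The authors called peaks with SICER over IgG. H3K4me3 peak widths are multiples of 200 bp and the others of 1000 bp. H3K4me3 peaks were paired with genes within 4 kb on either side of the TSS, and other peaks with gene bodies. Bowtie2, Trimmomatic and Picard are named in the submitters' processing notes. The authors deposited unnormalized counts of reads from ChIP and from IgG in each peak, a p-value, an FDR and the fold of ChIP over IgG (a ratio that allows for library size). Positions match GRCm38.

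The 38 members and all lists were chosen with earlier results of these data known. Older symbols were matched by RefSeq accession or synonym. The ChIP to IgG library ratio, recovered from counts and folds, was 0.847 (sg-Ctrl) and 2.68 (KO) for H3K27me3, and 1.06 and 1.35 for H3K4me3, and ChIP reads were divided by it. Total depth is otherwise unknown. Peaks of H3K4me3 held 26236314 and 24873356 reads. A gene with several TSS peaks was represented by the one with the most reads per kb. All 38 genes are named by role, with full values for those past 2-fold, with H3K27me3 or with the most extreme ratios. Intervals are exact Poisson for counts, exact binomial for ratios, order statistics for medians and Wilson for shares (95%). PCR duplicates and cultures are outside them. On simulated lists, 200 of 200 genes set 4-fold lower and 200 of 200 set higher were called, with 0 of 11900 unchanged genes. Both simulated lists shared their peak positions and had counting noise alone, so they cannot show how reliable calls are when peak widths differ. Alternatives concerned scaling, the choice of peak, reads per kb, IgG subtraction, FDR and fold limits. Of 13 samples, 4 of RNA-seq were not used here, and the 3 IgG samples entered through the IgG reads. Python 3.11.15, numpy, pandas, scipy and matplotlib were used.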

Additional observations from a re-analysis of the deposited data

How the results depend on the processing

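No paired analysis was possible because each condition has 1 library, and for the same reason no library could be left out. Of 84 alternative values of the summary measures, 60 stayed within 1.5 times the count or within the interval of the median. The number of members at least 2-fold lower in H3K4me3, 4, became 1 with scaling by shared peaks, 7 with summed reads, with the union of TSS peaks and with joined regions (the last added after the data were seen), and 10 with the fold over IgG. The number at least 2-fold higher, 0, became 1 (Ring1) with summed reads or the union, in which the KO peak takes in neighbouring start sites. The median log2 ratio of -0.45 became -0.023 with scaling by shared peaks. Against the all-gene median, the 0 members 2-fold lower became 1 with summed reads, joined regions (Setd1b both times), the fold over IgG (Kdm6a) or IgG subtraction (Kdm5a), and 2 with the union (Cbx7 and Setd1b). The 0 members 2-fold higher became 1 with summed reads or the union, and 2 with the fold over IgG (Phc1 and Kdm5c). Peaks that cover the TSS left 0 members with H3K27me3 in either library. The 14 members with NUP210 became 9 at an FDR of 0.05, 8 at 0.01 and 0 at a fold of at least 2, and the 14 with NPC became 7, 6 and 0. Widths, covered lengths and ratios relative to chromosomes stayed within their limits. Of 374 values of single members, 315 kept the sign of the reported value, and none of the 4 members at least 2-fold lower changed sign. Reads per peak limit single members, since the smallest of the peaks used held 354 reads. The cause of these shifts was not tested.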
